A study of Homo sapiens with 14 samples.

Results

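The 6 aldo-keto reductase genes AKR1A1, AKR1B1, AKR1B10, AKR1C1, AKR1C2 and AKR1C3 were followed through nascent transcription in A549 cells, a human lung adenocarcinoma line. They were chosen by name, as the rows of the gene count table that carry these symbols, and are 6 of the 58780 genes in it. The assay was PRO-seq (precision run-on sequencing), in which RNA polymerases engaged on the genes of permeabilized cells add labelled nucleotides and only that nascent RNA is sequenced. The 14 libraries form 7 groups of 2. Untreated cells received 0.01% DMSO for 15 min. GSK591, an inhibitor of PRMT5 (a type II protein arginine methyltransferase), was given at 1 µM for 15 min or for 3 h. MS023, an inhibitor of the type I enzymes, was given at 1 µM for the same times. In a further pair of groups each inhibitor was combined with 100 nM dexamethasone (Dex), an agonist of the glucocorticoid receptor, for 15 min. All groups share the cell line and the DMSO, and the 3 h groups are compared with cells untreated for 15 min, so duration and inhibitor change together there. A group treated with Dex alone is not analysed here, so each effect of Dex is its effect beside an inhibitor.

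Aldo-keto reductases are soluble enzymes that use NADPH to reduce aldehydes and ketones to alcohols. AKR1A1 (aldehyde reductase) and AKR1B1 (aldose reductase, which turns glucose into sorbitol) are broadly expressed. AKR1B10 reduces retinals and lipid-derived aldehydes, while AKR1C1, AKR1C2 and AKR1C3 are hydroxysteroid dehydrogenases. AKR1C1 inactivates progesterone, AKR1C2 inactivates dihydrotestosterone, and AKR1C3 makes testosterone and reduces prostaglandins. AKR1B10 and the AKR1C genes are well-known targets of NRF2, a transcription factor of the oxidative stress response that its inhibitor KEAP1 normally sends for degradation. A549 cells carry a defective KEAP1 and are known for high levels of these enzymes.

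The libraries held 5768312 to 9606938 counts, of which mitochondrial genes took 39.8% to 58.0%. Replicates correlated at r = 0.970 to 0.987 over log2 values. The second library of GSK591 with Dex stood apart: it had the largest mitochondrial share and the lowest scaling factor (0.810). It differed from its partner by a chi-square per degree of freedom of 13.4, against 2.00 to 5.38 in the other 6 pairs. That chi-square was taken over raw counts with the mitochondrial genes included, so these signs are not independent of each other. The mitochondrial share also differed between groups: it was 39.8% and 44.5% with MS023 for 15 min, the lowest group, and 53.8% and 54.0% in untreated cells. Keratin genes typical of A549 were transcribed, KRT7 at 2939 to 5117 counts and KRT8 at 1724 to 3091. KRT18 had 795 to 1391 counts and KRT19 had 114 to 225. The epithelial markers EPCAM and CDH1 were low, at 12 to 35 and 9 to 25 counts. CDKN2A, which A549 lacks, had 0 to 1 count. Of the markers of other cell types, those of T cells (CD3E, CD3D and PTPRC) had 0 to 1 count, and the myeloid markers CSF1R, CD14 and LYZ had 152 to 256, 17 to 34 and 0 to 1. The fibroblast markers COL1A1, PDGFRB and COL1A2 had 40 to 69, 1 to 8 and 0 to 2 counts. The endothelial markers CDH5, PECAM1 and VWF had at most 10, 5 and 2, and the hepatocyte markers APOA1 and ALB at most 23 and 6. Nothing in the labels says whether the libraries of a group came from separate cultures, so p-values measure the spread between these libraries, which may be technical.

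All 6 genes passed the filter on low counts, with at least 91 counts (AKR1A1) in every library. CPM values (a library's counts scaled to a common total), adjusted between libraries by the trimmed mean of M values, were divided by the length of all annotated exons to compare genes. In untreated cells AKR1B10 stood far above the others, at 147 ± 17.2 CPM per kb (SD, n = 2), which ranked 33 among 14351 protein-coding genes tested. AKR1C1 (28.7 ± 4.30 CPM per kb, rank 312) and AKR1C2 (26.6 ± 3.94 CPM per kb, rank 349) followed and did not differ beyond their spread. AKR1B1 at 11.0 ± 1.22 CPM per kb and AKR1C3 at 9.72 ± 0.231 CPM per kb were the next pair, apart by about the SD of AKR1B1. AKR1A1 was lowest, at 5.25 ± 0.056 CPM per kb and rank 3920. Annotated exons span 8765 bp in AKR1C1 and 1744 bp in AKR1B10. Before division by length these genes were about level in untreated cells, at 252 CPM for AKR1C1 and 257 CPM for AKR1B10. Which features the authors counted is not given in the sources used here, so the order above holds only with exon length as divisor.

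**Figure D1:**
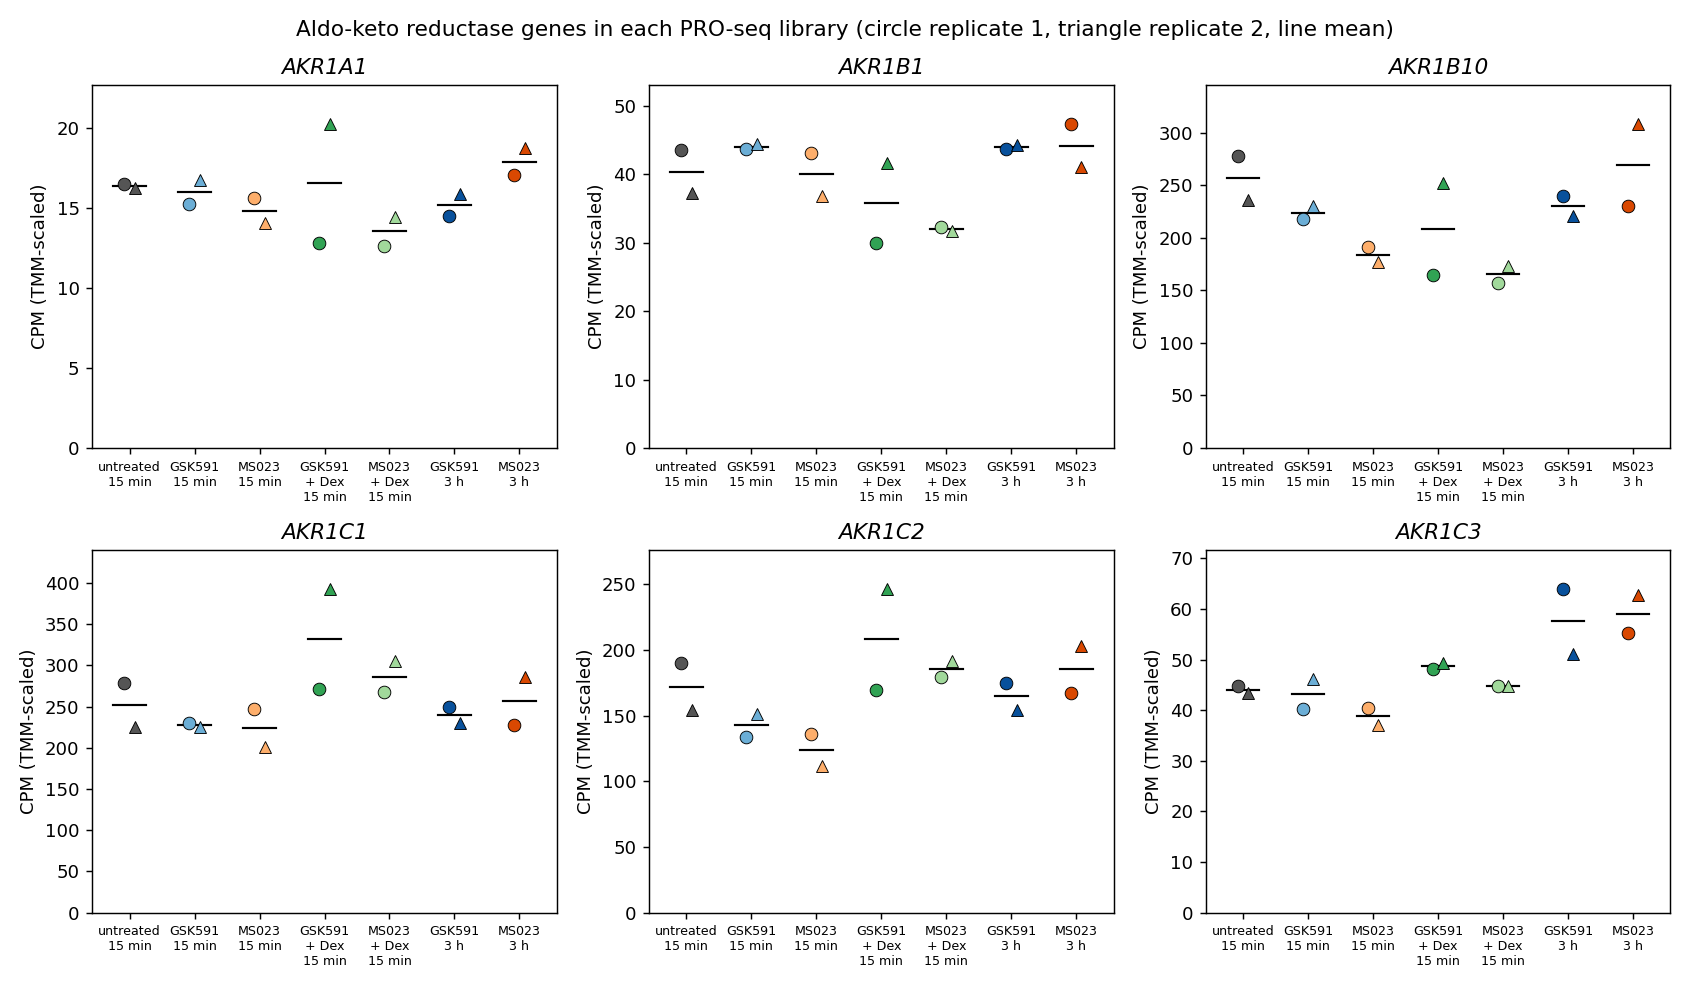
CPM (y axis, linear from 0) of each gene in the 14 libraries, by group on the x axis; circles are replicate 1, triangles replicate 2 and the line is their mean. AKR1C3 is highest in the 4 libraries taken at 3 h (51.1 to 64.0 CPM, against 37.1 to 49.4 in the other 10), and the second library of GSK591 with Dex holds the highest AKR1C1 and AKR1C2.

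The genes lie in 3 places in GRCh38. AKR1A1 is on chromosome 1 (45550543 to 45570049, plus strand). On chromosome 7 lie AKR1B1 (134442350 to 134459284, minus strand) and AKR1B10 (134527592 to 134541408, plus strand). On chromosome 10 lie AKR1C1 (4963253 to 4983283, plus strand), AKR1C2 (4987400 to 5018031, minus strand) and AKR1C3 (5035354 to 5107686, plus strand). No exon of the 6 genes overlaps an exon of another gene on either strand. AKR1C1 and AKR1C2 are near copies. Of all 50-base stretches in annotated AKR1C2 transcripts, 38.1% also occur in AKR1C1, and of those in AKR1C1 28.3% occur in AKR1C2. For AKR1C3 4.53% and for AKR1B10 14.8% occur in any other gene, in the latter mostly its neighbour AKR1B15. How reads matching several genes were treated is not given in the sources used here, so the split between AKR1C1 and AKR1C2 is uncertain.

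The near identity extends to the promoters, which are shown because AKR1C1 and AKR1C2 also had similar profiles over the libraries. The 250 bases before each RefSeq start site (GRCh38.p14) are printed 5′ to 3′ on the gene's strand, at chr10:4963165-4963414 (plus) for AKR1C1, chr10:5003858-5004107 (minus) for AKR1C2, and chr10:5048531-5048780 and chr10:5094164-5094413 (both plus) for AKR1C3. Capitals mark ATTGG, which is CCAAT on the other strand, and TTTATA, which is TATAAA on the other strand.
AKR1C1: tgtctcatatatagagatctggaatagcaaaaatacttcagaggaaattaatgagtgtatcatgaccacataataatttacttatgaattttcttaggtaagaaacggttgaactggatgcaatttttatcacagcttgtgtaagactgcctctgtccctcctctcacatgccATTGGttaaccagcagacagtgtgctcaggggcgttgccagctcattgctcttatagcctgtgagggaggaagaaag
AKR1C2: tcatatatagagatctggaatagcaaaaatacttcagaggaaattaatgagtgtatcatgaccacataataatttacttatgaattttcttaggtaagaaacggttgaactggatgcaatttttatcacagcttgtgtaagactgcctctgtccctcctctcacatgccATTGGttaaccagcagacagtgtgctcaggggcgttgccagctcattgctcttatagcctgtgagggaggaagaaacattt
AKR1C3, start 1: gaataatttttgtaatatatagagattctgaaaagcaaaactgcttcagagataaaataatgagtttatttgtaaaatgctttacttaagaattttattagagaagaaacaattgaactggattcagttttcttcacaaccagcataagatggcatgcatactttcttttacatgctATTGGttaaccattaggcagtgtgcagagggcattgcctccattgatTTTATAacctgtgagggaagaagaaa
AKR1C3, start 2: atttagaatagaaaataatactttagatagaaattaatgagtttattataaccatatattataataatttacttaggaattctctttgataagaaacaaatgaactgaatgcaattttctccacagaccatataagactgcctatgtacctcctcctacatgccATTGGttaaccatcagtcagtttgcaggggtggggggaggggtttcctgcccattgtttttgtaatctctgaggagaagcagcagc
AKR1C1 and AKR1C2 were identical at 245 of 246 aligned bases, and either matched the AKR1C3 windows at 76.8% to 79.1%. All 4 AKR1C windows hold ATTGG, 69 to 86 bases before the start, as -77 to -73 in AKR1C1, -81 to -77 in AKR1C2, -73 to -69 and -86 to -82 in AKR1C3. CCAAT on either strand occurs in 32.0% of 35116 RefSeq windows of this length. TATAAA on either strand, found in 10.7% of windows, occurs only in the first AKR1C3 window of the 7 windows of these genes. Neither the full palindromic glucocorticoid response element (0.328% of windows), its shorter arm AGAACA (12.4%) nor the antioxidant response element core TGACNNNGC (10.9%), searched on both strands, has a match in those 7 windows. The AKR1B10 promoter is not shown. Windows of this size say nothing of sites farther away.

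AKR1C1 and AKR1C2, the progesterone- and dihydrotestosterone-inactivating enzymes, were higher in the libraries with Dex than in those of the same inhibitor without it, while AKR1B10 was not. AKR1C2 rose when Dex accompanied either inhibitor, 1.46-fold beside GSK591 and 1.49-fold beside MS023, and AKR1C1 rose 1.46-fold beside GSK591. AKR1B10 was lower with MS023 and Dex than in untreated cells (0.643-fold). AKR1C2 stood at 134.0 and 151.0 CPM with GSK591 alone and at 169.4 and 246.6 CPM with Dex added. With MS023 alone it was at 136.3 and 111.9 CPM, and with Dex added at 179.1 and 191.2 CPM. So in both comparisons each Dex library lay above each library without it. The log2 fold changes of AKR1C2 were 0.54 ± 0.13 (SE, edgeR adjusted p = 0.00796) beside GSK591 and 0.57 ± 0.13 (edgeR adjusted p = 0.00209) beside MS023.

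AKR1C1 gave 230.3 and 225.2 CPM with GSK591 against 271.6 and 393.2 CPM with Dex added. With MS023 it gave 247.1 and 201.1 CPM against 267.5 and 304.8 CPM. Again no Dex library overlapped its comparison group, and log2 fold changes were 0.54 ± 0.13 (edgeR adjusted p = 0.00963) and 0.35 ± 0.13 (edgeR adjusted p = 0.0911), the latter not passing the test. Over all genes tested, 3.7% were called with Dex beside GSK591 and 8.97% beside MS023, where 2 and 1 of the 6 aldo-keto reductase genes were called. With the counts of AKR1C1 and AKR1C2 summed, which no split of shared reads between them can change, the log2 fold changes were 0.55 ± 0.13 (edgeR adjusted p = 0.0127) and 0.44 ± 0.13 (edgeR adjusted p = 0.0328). Against untreated cells, which had AKR1C1 at 278.4 and 225.2 CPM and AKR1C2 at 190.0 and 154.0 CPM, neither gene was called with Dex. Their differences there were 0.40 ± 0.13 and 0.27 ± 0.13 on the log2 scale with GSK591 and Dex, and 0.18 ± 0.13 and 0.11 ± 0.13 with MS023 and Dex.

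The increase beside GSK591 leaned on the library that stood apart. Without it the log2 fold change was 0.27 for AKR1C1 (edgeR adjusted p = 0.398) and 0.26 for AKR1C2 (edgeR adjusted p = 0.4); without its partner it was 0.78 and 0.79. Leaving out the first library of GSK591 at 15 min ended both calls (edgeR adjusted p = 0.0778 and 0.163), and leaving out the second ended that of AKR1C1 (0.0991); without the second library of MS023 at 15 min, AKR1C2 beside MS023 was at 0.45 (0.0792). Without the library that stood apart, AKR1B1 was called lower beside GSK591 (edgeR adjusted p = 0.0415). With library size as the only scaling, the calls of AKR1C1 (0.32, edgeR adjusted p = 0.16) and AKR1C2 (0.32, 0.162) beside GSK591 and of AKR1C2 beside MS023 (0.40, 0.0622) were lost, as were both beside GSK591 with only the groups compared (0.0587 and 0.0506). DESeq2 called neither gene in either comparison (AKR1C2 adjusted p = 0.131 beside GSK591 and 0.0572 beside MS023; AKR1C1 0.139 beside GSK591).

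The mitochondrial share moved with these levels. AKR1C1 was higher in the library with the larger share in 7 of 7 replicate pairs, AKR1C2 and AKR1B10 in 6 of 7, AKR1A1 and AKR1C3 in 5 of 7 and AKR1B1 in 3 of 7. The share was 46.9% and 48.6% with GSK591 alone against 48.2% and 58.0% with Dex, and 39.8% and 44.5% with MS023 alone against 49.6% and 52.9% with Dex. A covariate for the share, beside a coefficient per group, is fitted from differences in share within replicate pairs. These were largest for GSK591 with Dex (48.2% and 58.0%), the pair with the library that stood apart. All results with this covariate therefore lean most on that pair. With the share as a covariate in edgeR, the differences for AKR1C2 were 0.23 (adjusted p = 0.328) and 0.10 (0.771), and for AKR1C1 0.22 (0.351) and -0.16 (0.574). AKR1B10 was then called lower with Dex beside GSK591 (-0.43, adjusted p = 0.0216) and beside MS023 (-0.66, 0.000871). In the same fit against untreated cells, AKR1C1 was called higher with GSK591 and Dex (0.42, adjusted p = 0.00125) and with MS023 and Dex (0.33, 0.0179), groups closer in mitochondrial share. That fit also called AKR1C1 higher with GSK591 for 3 h, without Dex (0.41, edgeR adjusted p = 0.0466).

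**Figure D2:**
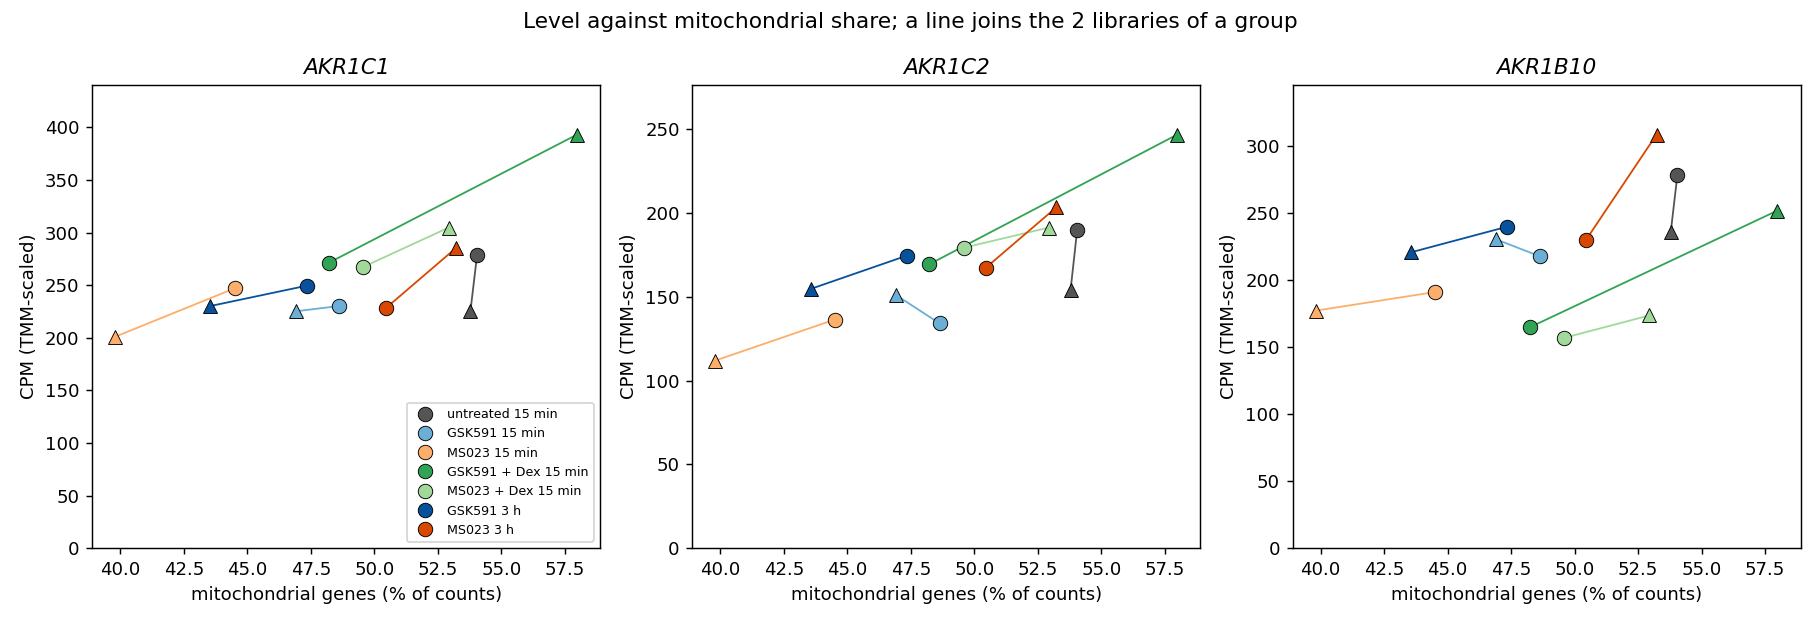
CPM (y axis) of AKR1C1, AKR1C2 and AKR1B10 against the share of a library's counts in mitochondrial genes (x axis, %), coloured by group; circles are replicate 1, triangles replicate 2 and lines join the 2 libraries of a group. Lines slope upward in 7 of 7 groups for AKR1C1 and in 6 of 7 for the others. For AKR1B10, both libraries of MS023 with Dex and the first of GSK591 with Dex lie low for their share. The second of GSK591 with Dex (58.0%, 251.8 CPM) has no library near its share.

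AKR1B10, the retinal and lipid aldehyde reductase, was at 278.2 and 235.7 CPM in untreated cells and at 156.8 and 173.6 CPM with MS023 and Dex. Both of those libraries lay below both untreated ones, and the log2 fold change was -0.64 ± 0.13 (edgeR adjusted p = 0.000974), in a comparison where 7.64% of all genes and 1 of the 6 aldo-keto reductase genes were called. With DESeq2 the call held (adjusted p = 0.0443), and it was lost without the first untreated library (-0.51, edgeR adjusted p = 0.0711). AKR1B10 was also low with MS023 alone, at 191.1 and 177.2 CPM, so that the step from MS023 to MS023 with Dex was -0.16 ± 0.13 and did not pass the test (edgeR adjusted p = 0.569). With GSK591 and Dex it was at 164.7 and 251.8 CPM, which overlapped the untreated libraries, and was not called (-0.30 ± 0.13, edgeR adjusted p = 0.185). Without the library that stood apart that difference was -0.63 (edgeR adjusted p = 0.00191). No aldo-keto reductase gene was called in the comparison of GSK591 and Dex with untreated cells, where 5.85% of all genes were. There 3 of the 6 had an unadjusted p under 0.05, as had 4031 of the 21910 genes tested.

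The ratio of AKR1B10 to AKR1C1 reads within a library does not depend on how libraries are scaled to each other. It was 0.606 and 0.640 with GSK591 and Dex, and 0.586 and 0.569 with MS023 and Dex. In the 10 libraries without Dex it ran from 0.773 to 1.08, with a median of 0.980. The 4 Dex libraries thus lay below all others, the library that stood apart included. MS023 at 15 min came closest, at 0.773 and 0.881. This ratio was chosen after the values were seen and is given as a description, with no test.

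**Figure D3:**
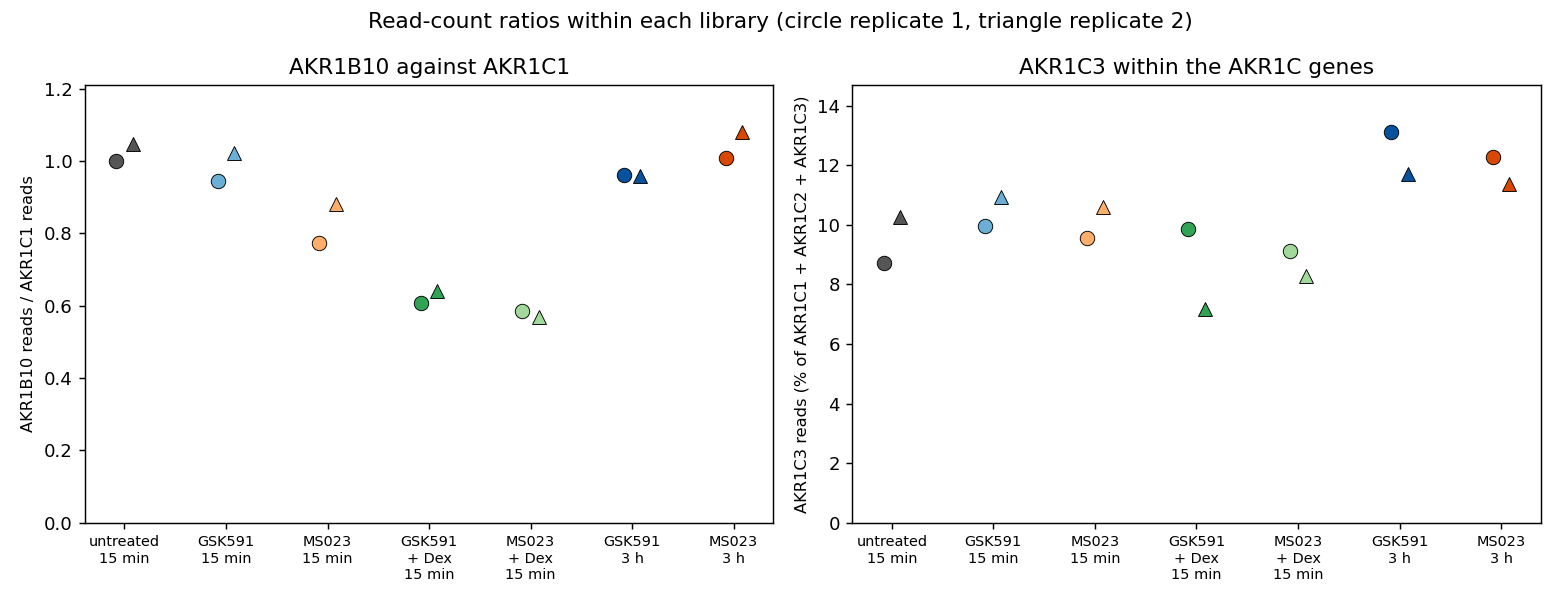
Read-count ratios within each library, by group on the x axis; circles are replicate 1 and triangles replicate 2. Left, AKR1B10 reads divided by AKR1C1 reads: the 4 Dex libraries lie at 0.569 to 0.640 and the other 10 at 0.773 to 1.08. Right, AKR1C3 reads as a percentage of AKR1C1, AKR1C2 and AKR1C3 reads: the 4 libraries at 3 h lie at 11.4% to 13.1% and the other 10 at 7.17% to 10.9%.

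The response to Dex beside GSK591 and beside MS023 could be compared directly. No aldo-keto reductase gene was called in that difference of differences, and 1.15% of all genes were. Of the 6, 0 had an unadjusted p under 0.05, against 2361 of the 21910 genes tested. The 95% interval of the difference, beside GSK591 minus beside MS023 on the log2 scale, was -0.39 to 0.34 for AKR1C2. For AKR1C1 it was -0.18 to 0.57, whose upper end is as large as the effect beside GSK591 itself.

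AKR1C3, the member of its cluster that makes testosterone, was the gene with the most calls, all of them at 3 h. It rose with both inhibitors, against untreated cells and against 15 min of the same inhibitor, by 1.31-fold to 1.51-fold. Its levels were 44.8 and 43.3 CPM in untreated cells, 40.3 and 46.1 CPM with GSK591 for 15 min, and 40.5 and 37.1 CPM with MS023 for 15 min. At 3 h they were 64.0 and 51.1 CPM with GSK591 and 55.3 and 62.7 CPM with MS023. Each of these 4 libraries lay above the other 10. Against untreated cells the log2 fold changes were 0.39 ± 0.11 (edgeR adjusted p = 0.0136) for GSK591 and 0.42 ± 0.11 (edgeR adjusted p = 0.0105) for MS023. These comparisons share the untreated libraries. Of all genes, 11% were called for GSK591 and 7.63% for MS023, and AKR1C3 was the 1 called among the 6 aldo-keto reductase genes in each.

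Against 15 min of the same inhibitor, AKR1C3 differed by 0.42 ± 0.11 with GSK591 (edgeR adjusted p = 0.0141) and by 0.60 ± 0.11 with MS023 (edgeR adjusted p = 0.000192). The call with MS023 held with each of its 4 libraries left out (0.53 to 0.69, edgeR adjusted p of 0.000546 to 0.00851) and with DESeq2 (0.61, adjusted p = 0.000536). With the mitochondrial share as a covariate it was 0.44 (edgeR adjusted p = 0.0937), while the other 3 calls of AKR1C3 held in that fit (0.45 to 0.53). The call with GSK591 against untreated cells was lost without its first library (0.22, edgeR adjusted p = 0.383) or without either untreated library (0.0729 and 0.135), and was at 0.0504 with DESeq2 and 0.102 with nuclear library sizes alone. That with GSK591 against 15 min was lost without the first library of either group (0.25, edgeR adjusted p = 0.373; 0.33, 0.211). The call with MS023 against untreated cells was lost without its second library (0.34, edgeR adjusted p = 0.135) or without either untreated library (0.0619 and 0.115), and with library size as the only scaling (0.0603).

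AKR1C3 also took more of the reads of its gene cluster at 3 h. It held 13.1% and 11.7% of the reads of the 3 AKR1C genes with GSK591 and 12.3% and 11.4% with MS023, against 7.17% to 10.9% in the other 10 libraries. The lowest share, 7.17%, was in the library that stood apart. AKR1C1 and AKR1C2 were not called at 3 h against untreated cells: AKR1C1 differed by -0.07 ± 0.13 with GSK591 and 0.03 ± 0.13 with MS023, and AKR1C2 by -0.06 ± 0.13 and 0.11 ± 0.13. This percentage too was chosen after values were seen and has no test.

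With MS023, AKR1B10 and AKR1C2 also differed between 3 h and 15 min, which made 3 of the 6 genes called, where 12% of all genes were. The MS023 15 min libraries are also the reference for Dex beside MS023, so the AKR1C2 results of those comparisons are not independent. AKR1B10 went from 191.1 and 177.2 CPM to 230.0 and 308.5 CPM (0.54 ± 0.13, edgeR adjusted p = 0.00359). AKR1C2 went from 136.3 and 111.9 CPM to 167.3 and 203.3 CPM (0.57 ± 0.13, edgeR adjusted p = 0.00177). In neither gene did the libraries overlap, and neither gene was called at 3 h against untreated cells (0.06 ± 0.13 and 0.11 ± 0.13). Both calls were lost with the mitochondrial share as a covariate, where the differences were 0.0014 (edgeR adjusted p = 0.998) and 0.06 (0.872). Both were lost too without the second library of MS023 at 15 min (edgeR adjusted p = 0.0563 and 0.0782) or at 3 h (0.176 and 0.0606), and that of AKR1B10 with DESeq2 (0.0782) or with library size as the only scaling (0.40, edgeR adjusted p = 0.0631). The summed reads of AKR1C1 and AKR1C2 differed by 0.34 ± 0.13 between these times (edgeR adjusted p = 0.095). With GSK591, AKR1C3 was the 1 gene of the 6 called between these times, where 6.4% of all genes were called. The difference between the inhibitors in this change over time, a comparison added after the data were seen, called none of the 6 genes and 0.561% of all genes. In it 1 of the 6, AKR1B10 (-0.51 ± 0.18, GSK591 minus MS023, edgeR adjusted p = 0.279), had an unadjusted p under 0.05, as had 2196 of the 21910 genes tested.

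**Figure D4:**
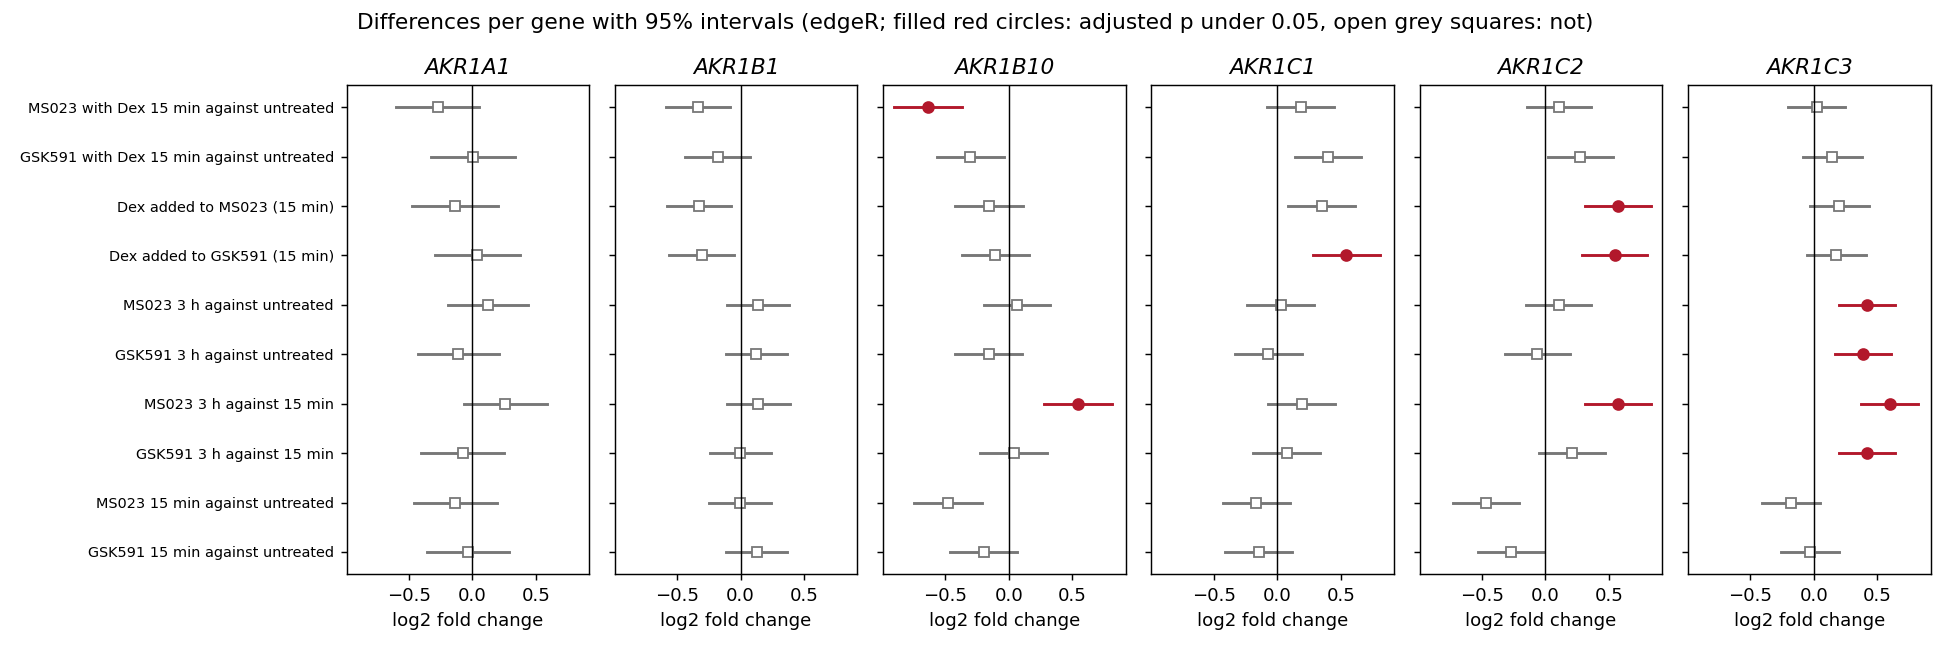
Log2 fold changes (x axis) of the 6 genes in 10 comparisons (y axis), with 95% intervals from edgeR; filled red circles have an adjusted p under 0.05 and open grey squares do not. The 10 calls are 4 of AKR1C3, 3 of AKR1C2, 2 of AKR1B10 and 1 of AKR1C1, and the AKR1B10 call of MS023 with Dex against untreated is the only one below 0.

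After 15 min of an inhibitor alone, none of the 6 genes was called, and few genes were: 0.306% of all genes with GSK591 and 0.196% with MS023. Without adjustment 1 and 2 of the 6 had p under 0.05, against 1499 and 1772 of the 21910 genes tested. AKR1C2 was lower than in both untreated libraries in all 4 inhibitor libraries, by -0.27 ± 0.13 with GSK591 (edgeR adjusted p = 0.687) and -0.47 ± 0.13 with MS023 (0.166). AKR1B10 differed by -0.20 ± 0.13 with GSK591 (edgeR adjusted p = 0.869) and -0.48 ± 0.13 with MS023 (0.158). The MS023 differences of both genes were called when only the groups compared entered the fit (AKR1C2 0.00068 and AKR1B10 0.000191), without the count filter (0.0029 and 0.00108), and with nuclear library sizes alone (0.015 and 0.0159). With the mitochondrial share as a covariate they were 0.15 and 0.17.

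GSK591 and MS023 differ in the class of methyltransferase they inhibit, and at matched times none of the 6 genes was called between them. The share of all genes called was 1.1% at 15 min, 0% at 15 min with Dex and 0% at 3 h. At an unadjusted p under 0.05 there were 1, 1 and 0 of the 6 genes, and 2141, 1659 and 1319 of the 21910 genes tested. DESeq2 called 83, 0 and 5 genes in all, none of them among the 6. AKR1B10 was the gene with the unadjusted p under 0.05 both times, with 95% intervals of 0.02 to 0.55 at 15 min and 0.06 to 0.60 with Dex (GSK591 minus MS023). At 3 h the intervals ran from -0.49 to 0.04 for AKR1B10 and from -0.24 to 0.19 for AKR1C3.

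AKR1A1 and AKR1B1, the broadly expressed aldehyde and aldose reductases, were called in none of the 15 comparisons. AKR1A1 ran from 12.7 to 20.3 CPM, and both of these extremes were in libraries with Dex. AKR1B1 had its 3 lowest values in Dex libraries (29.9 CPM with GSK591, 32.3 and 31.8 CPM with MS023), and the fourth Dex library, the one that stood apart, was at 41.6 CPM. In the other 10 libraries it ran from 36.8 to 47.4 CPM. AKR1B1 differed with Dex by -0.31 ± 0.13 beside GSK591 (edgeR adjusted p = 0.19) and by -0.33 ± 0.13 beside MS023 (0.101). With the mitochondrial share as a covariate both were called (-0.48, edgeR adjusted p = 0.0476, and -0.60, 0.0174), and so were they with library size as the only scaling (0.022 and 0.0247).

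Of 12 other genes of the superfamily 10 were tested. AKR1B15, which shares 9.70% of the 50-base stretches of AKR1B10, fell with MS023 and Dex against untreated cells from 17.7 and 15.6 CPM to 11.5 and 12.0 CPM (-0.50 ± 0.16, edgeR adjusted p = 0.0378). KCNAB3, a potassium channel subunit with the aldo-keto reductase fold, fell in the same comparison (-0.61 ± 0.15, edgeR adjusted p = 0.0054), and its relative KCNAB2 fell from 15 min to 3 h of MS023 (-0.61 ± 0.11). Those were the only calls in this list over the 15 comparisons. Of all genes, 7.64% were called with MS023 and Dex against untreated cells, and 12% from 15 min to 3 h of MS023. AKR1C4, the liver enzyme of the chromosome 10 cluster, was at 2.00 to 4.72 CPM throughout.

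Genes around the members were described by lists chosen with earlier results of these data known. All 10 genes of a glucocorticoid response list were called higher with Dex in both inhibitor settings. Their median log2 fold changes were 1.40 beside GSK591 and 1.52 beside MS023, where 3.7% and 8.97% of all genes were called. PER1, a clock gene, and TSC22D3, which encodes the glucocorticoid-induced leucine zipper GILZ, reached 1.83 ± 0.13 and 1.63 ± 0.11 in the GSK591 and Dex group relative to the untreated one. The differences of AKR1C1 and AKR1C2 with Dex were smaller than these medians.

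Of 30 other NRF2 targets, 13 rose and 1 fell from 15 min to 3 h of MS023, where 12% of all genes were called. The median log2 fold change of the list was 0.30 against -0.01 over all genes tested. SRXN1 (sulfiredoxin, 2.16 ± 0.18), FTH1 (ferritin heavy chain, 0.99 ± 0.11) and GCLC (catalytic subunit of glutamate-cysteine ligase, 0.77 ± 0.10) led those that rose, and OSGIN1 fell (-0.36 ± 0.09). The libraries of MS023 at 15 min are the reference here and for Dex beside MS023. Against untreated cells they had a list median of -0.15, with GCLM called lower (-0.59 ± 0.13). No list was read with the mitochondrial share as a covariate. With GSK591 6 rose and 0 fell, with a median of 0.10 against -0.01, and EPHX1 (an epoxide hydrolase, 0.76 ± 0.12) led. There 6.4% of all genes were called. Against untreated cells at 3 h, 5 rose and 2 fell with GSK591 and 7 rose and 0 fell with MS023. The shares of all genes called were 11% and 7.63%. With Dex, list genes were called in both directions, where 8.97% of all genes were called beside MS023 and 3.7% beside GSK591. Beside MS023 6 rose, among them SRXN1 (2.00 ± 0.18) and FTH1 (0.86 ± 0.11), and 3 fell, FTL (ferritin light chain, -0.59 ± 0.10), NR0B1 (-0.53 ± 0.10) and OSGIN1 (-0.42 ± 0.09). Beside GSK591 1 rose, GCLC (0.41 ± 0.10), and 1 fell, FTL (-0.56 ± 0.10). Whether AKR1C1 and AKR1C2 share a cause with these genes was not tested. Of 12 regulators of NRF2, SQSTM1 (the autophagy receptor p62, -0.68 ± 0.10 beside GSK591 and -0.42 ± 0.10 beside MS023) and MAFG (a small MAF partner of NRF2, -0.39 ± 0.10 and -0.34 ± 0.10) fell with Dex in both settings. MAFF rose beside MS023 (0.51 ± 0.12).

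Among 20 tested genes of aldehyde, alcohol and carbonyl metabolism, ALDH1A3, a retinal dehydrogenase, rose at 3 h against untreated cells with GSK591 (0.84 ± 0.13) and MS023 (0.84 ± 0.13). DCXR, a carbonyl and xylulose reductase, rose there too (1.05 ± 0.14 and 0.69 ± 0.15), and no other gene of the list was called in these 2 comparisons. Of all genes, 11% and 7.63% were called in them. Of 20 tested genes of steroid and prostaglandin metabolism, 2 rose and 5 fell with Dex beside MS023, and 1 rose and 3 fell beside GSK591. The shares of all genes called were 8.97% and 3.7%. HPGD, which inactivates prostaglandins, rose in both (0.83 ± 0.17 beside GSK591 and 0.81 ± 0.16 beside MS023), and CYP24A1, the vitamin D hydroxylase, fell in both (-0.69 ± 0.11 and -0.59 ± 0.11).

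Across the 14 libraries, and as a description over points that share groups, scaling and mitochondrial share, AKR1C1 and AKR1C2 had a Pearson r of log2 CPM of 0.89. Their transcripts share sequence, and how reads matching both were counted is not given, so these profiles may not be separate measures. AKR1C1 ranked 2 among 13496 genes compared with AKR1C2, behind EIF2AK2 (r = 0.91) and before ADSL (0.86). The profile of AKR1B10 was nearer to AKR1A1 (0.83) and AKR1B1 (0.70) than to AKR1C2 (0.39) or AKR1C1 (0.18), and the genes most like it were PCDH9 (0.95), ZKSCAN1 (0.95) and ANAPC16 (0.93). Nearest to AKR1C1 were NUP155 (0.94), MIR193BHG (0.92) and ZNF483 (0.92), and nearest to AKR1C3 were PAAF1 (0.93), CLIP4 (0.93) and KLHL35 (0.93). AKR1A1 was most like GCNT2 (0.93), KBTBD4 (0.89) and TRUB2 (0.88), and AKR1B1 was most like SKIC2 (0.96), LINC00963 (0.93) and SNX17 (0.92).

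In the authors' deposited tables of 6 comparisons with untreated cells, none of the 6 genes had an adjusted p under 0.05. Of all genes, 0 did with GSK591 and 3 with MS023 for 15 min. With Dex, 154 did for GSK591 and 238 for MS023, and at 3 h 535 and 359 did. Those tables list AKR1C3 at 0.42 ± 0.18 on the log2 scale (adjusted p = 0.18) with GSK591 for 3 h and 0.45 ± 0.18 (0.21) with MS023 for 3 h, from the authors' deposited DESeq2 values. They list AKR1B10 at -0.51 ± 0.26 (adjusted p = 0.52) with MS023 and Dex in the authors' deposited table.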

How the data were processed

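PRO-seq libraries of A549 cells (7 groups of 2) were analysed from the authors' deposited table of raw read counts per gene. The counts came from Subread's featureCounts 2.0.1 on hg38, per the submitters' processing notes; the aligner, the counted feature and the strand setting are not given in the sources used here. Of the table's rows, 22731 have no gene symbol and were kept by their identifier. Gene positions came from GENCODE 29, promoters from RefSeq (GRCh38.p14).

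The 6 deposited DESeq2 tables, per the file headers, hold the authors' mean normalized signal, log2 fold changes with their errors, a score (the test statistic) and p-values; they were only read, not tested.

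Counts were fitted with edgeR 4.0.16 (R 4.3.3): TMM scaling, its default count filter (21910 of 58780 genes tested), 1 coefficient per group over all 14 libraries (7 residual degrees of freedom) and the quasi-likelihood test, with Benjamini-Hochberg adjustment over all genes tested. A gene was called at an adjusted p under 0.05. Intervals are 95%. Alternatives included DESeq2 1.42.0, other scalings, no filter, only the groups compared, a replicate block and each library left out; nuclear library size alone, the mitochondrial share as a covariate and the difference of the time effects were added after seeing the data. The steps were tested on simulated data. Genes named are the 6 members, the 3 genes most correlated with each (mean of at least 5 CPM, prior count 2) and at most 3 called genes per list, comparison and direction. The members and lists were chosen with earlier results of these data known. No paired design was assumed: same-numbered libraries did not deviate together (correlations of deviations -0.10 to 0.22 over 21 pairs of groups).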

Additional observations from a re-analysis of the deposited data

How the results depend on the processing

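Of the 10 calls, none was lost with DESeq2 size factors in edgeR, with library sizes without mitochondrial counts, without the count filter or with a replicate block; the block gave the same number of called aldo-keto reductase genes in all 15 comparisons (for example 3 for MS023 at 3 h against 15 min) and 860 against 811 genes in all for Dex beside GSK591. The labels do not say whether same-numbered libraries of different groups were handled together. Numbers of called members moved elsewhere. For MS023 at 15 min against untreated, 0 became 2 (AKR1B10 and AKR1C2, lower) without the filter, with only the groups compared and with nuclear library size alone. For GSK591 with Dex, 0 became 1 (AKR1B10, lower) with library size alone or nuclear library size alone, 3 with the mitochondrial covariate (AKR1B10 lower, AKR1C1 and AKR1C2 higher) and 2 without the filter (AKR1B10 lower, AKR1C1 higher). For MS023 with Dex, 1 became 2 with nuclear library size alone or only the groups compared (AKR1B1 added, lower) or the covariate (AKR1C1 added, higher). For GSK591 at 3 h, 1 became 0 with nuclear library size alone or DESeq2 and 2 with the covariate (AKR1C1 added); for MS023 at 3 h, 1 became 0 with library size alone. For Dex beside GSK591, AKR1C1 and AKR1C2 were both lost with library size alone, where the 1 gene called was AKR1B1 (lower), and with the covariate, where the 2 called were AKR1B1 and AKR1B10 (both lower); 0 were called with only the groups compared or DESeq2. For Dex beside MS023, AKR1C1 joined AKR1C2 to make 2 with nuclear library size alone, only the groups compared or no filter. AKR1C2 was lost there with library size alone (AKR1B1 was called lower), with the covariate (2 called, AKR1B1 and AKR1B10, both lower) and with DESeq2 (0 called). Between 3 h and 15 min, the covariate turned 1 into 2 for GSK591 (AKR1C2 added) and 3 into 0 for MS023, where library size alone or DESeq2 left 2, without AKR1B10. With a library left out, the numbers ran from 0 to 2 (GSK591 with Dex), 0 to 1 (MS023 with Dex, GSK591 at 3 h, MS023 at 3 h), 0 to 2 (Dex beside GSK591), 0 to 1 (Dex beside MS023, GSK591 at 3 h against 15 min), 1 to 3 (MS023 at 3 h against 15 min) and 0 to 1 (GSK591 against MS023 with Dex, where AKR1B10 was called without the first library of GSK591 with Dex). A group left with 1 library borrows its spread from the others. AKR1C1 with GSK591 at 3 h turned from -0.07 to 0.41 under the covariate (adjusted p = 0.0466). The summed reads of the 3 AKR1C genes, a different quantity from AKR1C3, differed there by -0.018. The causes were not tested. Library size alone moved the median of all genes by -0.21 with Dex beside GSK591 and by -0.19 beside MS023, and turned 313 higher of 811 called genes beside GSK591 into 99 of 1472. DESeq2 called fewer genes in all: 413 against 811 and 1096 against 1965 for Dex beside GSK591 and MS023, 1342 against 2418 and 956 against 1672 at 3 h against untreated, 659 against 1403 and 1506 against 2638 at 3 h against 15 min. Depth limits AKR1A1 most, at 91 to 157 counts.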
